A study of Mus musculus with 36 samples.

Results

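Replication-dependent histone genes encode the bulk of the histone proteins that package newly copied DNA. Every protein-coding gene whose GENCODE M21 symbol begins with Hist1h, Hist2h, Hist3h or Hist4h was taken as a member, which gave 67 of the 53379 genes in the count tables. The members comprised 6 genes for linker histone H1, 18 for H2A, 18 for H2B, 12 for H3 and 13 for H4. Most of them lay in a cluster on chromosome 13, which held 54 members between 21715763 and 23934851 on build GRCm38. A second cluster on chromosome 3 held 10 members between 96219865 and 96270132. Chromosome 11 held 2 members and chromosome 6 held 1, Hist4h4. The symbols of 3 pseudogenes also fitted the pattern, and these were kept apart.

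RNA was measured in 36 libraries from 17 mice or fetuses in 7 groups, from tissue fixed in formalin and embedded in paraffin. In the first model, Sglt2-Cre; ASPSCR1-TFE3 LSL/+ mice, 6 animals gave kidney tumors (11 libraries), 4 gave retro-orbital tumors, 3 gave brain tumors and 4 gave non-transformed kidney. Sglt2-Cre mice without the fusion, 3 animals with 6 libraries, gave control kidneys. In the second model, 5 Pax8-Cre; ASPSCR1-TFE3 LSL/+ fetuses gave dysmorphic kidneys and 3 fetuses labelled Pax8-Cre gave control kidneys. All groups carry a Cre transgene by their genotype labels, although for the fetal controls the design text allows either allele alone. The Sglt2 promoter is active in the proximal tubule of the kidney and the Pax8 promoter across the developing renal epithelium, and each drives the Cre of its model. Tumors outside the kidney were also sampled in the first model. Ages of the Sglt2-Cre cohort are not given in the sources used here, and its samples are called non-fetal below. Libraries of an animal and tissue were summed, and n below counts animals.

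In a dividing cell, DNA replication in S phase requires a large supply of new histones, and the members are transcribed together in that phase under the coactivator NPAT. Their messages end in a conserved stem-loop instead of a poly(A) tail, and the stem-loop binding protein SLBP governs their processing, translation and decay. H2A, H2B, H3 and H4 form the nucleosome core, whereas H1 binds the linker DNA between nucleosomes. Resting cells rely more on variant histones whose genes lie elsewhere and are transcribed at any time. The libraries were made from total RNA without removal of ribosomal RNA or selection for poly(A), so that messages without a tail were also counted.

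The stem-loops are shown because they define the RNA class under study. A search for the histone stem-loop motif downstream of the coding sequence in the GENCODE M21 transcripts found a stem-loop in 46 members. The annotated transcripts of the other 21 held none, which says only that these letters are not in the annotated sequence. In the sequences below, capitals mark the stem and lower case the loop, all 16 bases long.
26 members of the H1, H2A, H2B and H3 classes: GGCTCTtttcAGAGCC
Hist1h4c, Hist1h4d, Hist1h4f, Hist1h4h, Hist1h4m, Hist1h4n and Hist4h4: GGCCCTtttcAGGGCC
Hist1h1t, Hist1h2bb, Hist1h2bk, Hist1h3c, Hist1h3e and Hist1h3f: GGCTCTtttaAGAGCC
Hist1h4i and Hist2h4: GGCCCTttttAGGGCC
Hist1h4b and Hist1h4j: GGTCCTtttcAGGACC
Hist1h4a: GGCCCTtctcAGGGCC
Hist1h3g: GGCTCTtcttAGAGCC
Hist2h2ac: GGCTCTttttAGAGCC

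No H4 member shared a stem-loop sequence with a member of another class. Among H1, H2A, H2B and H3 members the stem letters were the same and only the loop varied. The loop of Hist1h3g, an H3 gene on chromosome 13, was found in no other member.

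Promoter sequences from RefSeq, 250 bases before to 50 bases after each start on GRCm38.p6, were matched for 61 members by gene ID or symbol, strand and position. The octamer ATTTGCAT, a motif bound by POU-domain factors such as OCT1, was searched on both strands. It was found in 7 of 17 H2A promoters (41.2%) and 6 of 16 H2B promoters (37.5%), in none of the 28 H1, H3 and H4 promoters, and in 1.75% of all 27025 promoters. The windows below show it in capitals within 30 bases of promoter, each on the strand of its gene. They are given because several H2A and H2B genes lie head to head and read the same octamer from either side.
Hist1h2bg, chr13:23571330-23571359, plus strand: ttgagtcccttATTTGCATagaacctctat
Hist1h2ae, the same window, minus strand: atagaggttctATGCAAATaagggactcaa
Hist1h2bk, chr13:22035780-22035809, plus strand: catttcactttATTTGCATacgaagttcta
Hist1h2ah, the same window, minus strand: tagaacttcgtATGCAAATaaagtgaaatg
Hist1h2bm, chr13:21722008-21722037, plus strand: ctctcgtctctATTTGCATaacagcgtgta
Hist2h2ac, chr3:96221062-96221091, minus strand: atgaacgccttATGCAAATtaggtctcaaa
Hist3h2a, chr11:58954555-58954584, plus strand: gggtaaggcatATGCAAATtaggaaggctc

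The H1 promoters carried another element. The H1 box AAACACA was found in 5 of 6 H1 promoters (83.3%), in 2 H2A and 2 H2B promoters, in no H3 or H4 promoter and in 7.14% of all promoters. Hist1h1a was the H1 member without it. In the windows below the box is in capitals.
Hist1h1b, chr13:21780724-21780753, minus strand: tggggactaacAAACACAatttgggattgt
Hist1h1c, chr13:23738684-23738713, plus strand: tgaagtgtaacAAACACAagttgggcgcag
Hist1h1d, chr13:23554899-23554928, plus strand: tgaggggcaacAAACACAgccacaaggcaa
Hist1h1e, chr13:23622655-23622684, minus strand: tgaggtgtaacAAACACAactccgcatctg
Hist1h1t, chr13:23695686-23695715, plus strand: ggggggaaaagAAACACAaatgcccctcct

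CCAAT was present in every H1, H2A, H2B and H3 promoter matched, in 3 of 12 H4 promoters (25%) and in 37.9% of all promoters. TATAAA was found in 57.4% of member promoters and in 14.2% of all promoters. These motifs were also counted on both strands, and a match is a description of the letters only. The coding sequences are close copies within a class. The 13 H4 members encode 1 protein of 103 residues, the 12 H3 members encode 3 proteins, the 18 H2A members 9 and the 18 H2B members 12. The 6 H1 members encode 6 different proteins. A median of 98.9% of the 50-base stretches of an H1 member's transcripts occurred in no other gene, compared to 27% for H2A, 53.1% for H2B, 38% for H3 and 60.5% for H4. How the authors assigned reads shared by copies is not known. The level of a single gene, above all of H2A or H3, is thus less certain than that of its class. Single genes of other classes are also affected. The unique share was 13.55% for Hist1h2bn and 28.52% for Hist1h4k, and 0% for the H3 gene Hist2h3b. Hist1h2ao and Hist1h2ap, Hist1h2bq and Hist1h2br, Hist1h4m and Hist1h4n, and Hist2h2aa1 and Hist2h2aa2 have identical coding sequences within each pair. Hist2h2aa1 and Hist2h3c1 had 0 counts in all libraries. They have no 50-base stretch of their own, so 0 counts do not show that they were silent.

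Each library held between 80205573 and 121415057 counts, and the members took between 0.0457% and 0.438% of them. Marker genes checked the tissues. The summed level of 5 proximal tubule genes (Lrp2, Cubn, Slc34a1, Slc5a2, Aqp1) was 10519 to 10965 CPM (counts divided by the library size and rescaled) in control kidneys, 10167 to 13267 in non-transformed kidneys, 632 to 7386 in tumors of the kidney, 113 to 1003 in retro-orbital tumors and 286 to 727 in brain tumors. The sum of 5 brain genes was 35.9, 353 and 1440 CPM in the 3 brain tumors, the lowest of which lay within the range of kidney tumors, 14.1 to 85.6 CPM, and of retro-orbital tumors, 20.7 to 53.6 CPM. Skeletal muscle markers summed to 807 ± 121 CPM (SD, n = 3) in control fetal kidneys and 3124 ± 1009 CPM (n = 5) in dysmorphic fetal kidneys. In bulk tissue, fewer cells of a type and less RNA per cell cannot be told apart.

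The classes were compared over the 7 groups by their summed level, in CPM scaled by TMM factors. The H3 total was 28.2 ± 1.74 CPM (SD, n = 3) in control kidneys, 21.4 ± 7.63 (n = 4) in non-transformed kidneys and 95.1 ± 16.9 (n = 6) in kidney tumors. It was 182 ± 90.1 CPM (n = 4) in retro-orbital tumors, 157 ± 28.6 (n = 3) in brain tumors, 671 ± 38.7 (n = 3) in control fetal kidneys and 653 ± 169 (n = 5) in dysmorphic fetal kidneys. The H3 totals of kidney tumors, 75.1 to 124 CPM, lay above all control and non-transformed kidneys, of which the highest had 31.8 CPM, and below all fetal kidneys, of which the lowest had 505 CPM. Against the control kidney mean, the H3 total was 3.37 times as high in kidney tumors and 23.8 times in control fetal kidneys.

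The group means of H2A and H2B were also lowest in the kidneys without tumor of the Sglt2-Cre cohort and highest in the fetal kidneys, with smaller ratios. The H2A total was 73 ± 15 CPM (SD, n = 3) in control kidneys, 165 ± 27.4 (n = 6) in kidney tumors, 238 ± 78.9 (n = 4) in retro-orbital tumors, 210 ± 32.6 (n = 3) in brain tumors and 491 ± 47.4 (n = 3) in control fetal kidneys. The H2B total was 92.3 ± 1.99 CPM in control kidneys, 191 ± 33.2 in kidney tumors, 285 ± 128 in retro-orbital tumors, 195 to 285 (n = 3) in brain tumors and 780 ± 104 in control fetal kidneys. For both classes the kidney tumors did not overlap the control or the non-transformed kidneys, while the 3 kinds of tumor overlapped each other.

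The H4 total had the smallest ratio of kidney tumors to control kidneys, 1.21. It was 238 ± 16.1 CPM (SD, n = 3) in control kidneys, 289 ± 29.7 (n = 6) in kidney tumors, 404 ± 142 (n = 4) in retro-orbital tumors and 349 ± 32.3 (n = 3) in brain tumors, and 1036 ± 59.5 (n = 3) in control fetal kidneys. H4 genes took 43.6% of all member counts in control kidneys, 29.6% in kidney tumors and 31.6% in control fetal kidneys. The H3 share went from 5.15% to 9.67% and 20.5% in the same groups. These are shares of counts and are not scaled to length.

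H1 departed from the core classes in its summed level. Its total was 127 ± 92.7 CPM (SD, n = 3) in control kidneys, 183 ± 19.6 (n = 4) in non-transformed kidneys and 242 ± 44 (n = 6) in kidney tumors, then 136 ± 16.9 (n = 4) in retro-orbital tumors and 137 ± 28.5 (n = 3) in brain tumors. The spread among control kidneys came from control mouse 1, at 234 CPM, while mice 2 and 3 had 75.7 and 71.3 CPM. Every kidney tumor, at 190 CPM or more, lay above every retro-orbital and brain tumor, at 167 CPM or less. Among the H1 genes, Hist1h1c had means of 184, 59.2 and 66.6 CPM in kidney, retro-orbital and brain tumors. The means of Hist1h1a, Hist1h1b, Hist1h1e and the barely detected Hist1h1t were higher at both other sites than in kidney tumors. For Hist1h1b they were 6.17, 14 and 12.7 CPM. Hist1h1d had means of 18.4, 22.2 and 14.6 CPM. Control fetal kidneys had 302 ± 27.3 CPM, 2.38 times the control kidney mean, the smallest such ratio of the 5 classes.

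**Figure D1:**
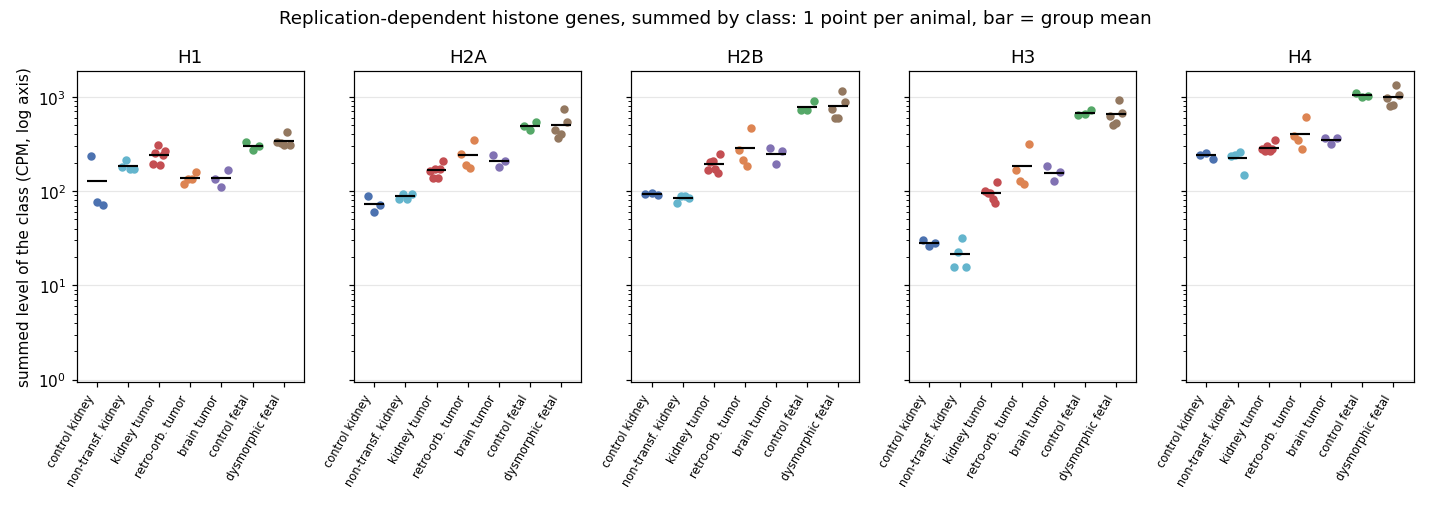
Summed level of each histone class (CPM, log axis) in the 7 groups, with a point for each animal and a bar for the group mean. H3 covers the widest range, from 15.6 CPM in a non-transformed kidney to 929 CPM in a dysmorphic fetal kidney. H1 is the class whose tumor means fall from 242 CPM in the kidney to 136 and 137 CPM at the other sites. Of its genes, Hist1h1c falls from 184 to 59.2 and 66.6 CPM.

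To ask which members were altered in tumors, kidney tumors (n = 6) were compared to control kidneys (n = 3). Of 63 members tested, 44 were called higher and 1 lower at a Benjamini-Hochberg adjusted p under 0.05 in the edgeR quasi-likelihood test. Among all 23578 genes tested, 12.5% passed upwards and 6.51% downwards. The median log2 fold change was 2.0 over the members and 0.05 over all genes. The 4 members not tested, Hist1h2aa, Hist1h2ba, Hist2h2aa1 and Hist2h3c1, had too few counts. By class, 10 of 11 H3 members, 14 of 17 H2B, 12 of 16 H2A, 6 of 13 H4 and 2 of 6 H1 members were called higher, with medians of 2.02, 2.0, 2.56, 0.89 and 1.16.

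Markers of other cell types moved in the same comparison. Both nephron progenitor genes tested, Eya1 (6.08) and Cited1 (4.74), were called higher, and the sum of the 3 on the list was 1.71 to 2.88 CPM in control kidneys and 4.77 to 358 CPM in kidney tumors, with the third, Six2, at 0 in the control kidneys and at most 0.0841 CPM in tumors. Of 3 leukocyte genes Cd68 (3.98) was called higher, and their sum was 124 to 144 CPM and 163 to 382 CPM. Of 5 brain genes Mbp (1.33) was called higher, and their sum was 9.44 to 12 CPM and 14.1 to 85.6 CPM. None of 4 skeletal muscle genes, 5 proximal tubule genes, 4 erythroid genes and 3 lymphocyte genes was called, with medians of 4.08, -2.04, -0.29 and 0.86. The skeletal muscle sum was 0.749 to 3.48 CPM in control kidneys and 1.78 to 80.7 CPM in tumors. The part of these cells in the result was not tested.

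**Figure D2:**
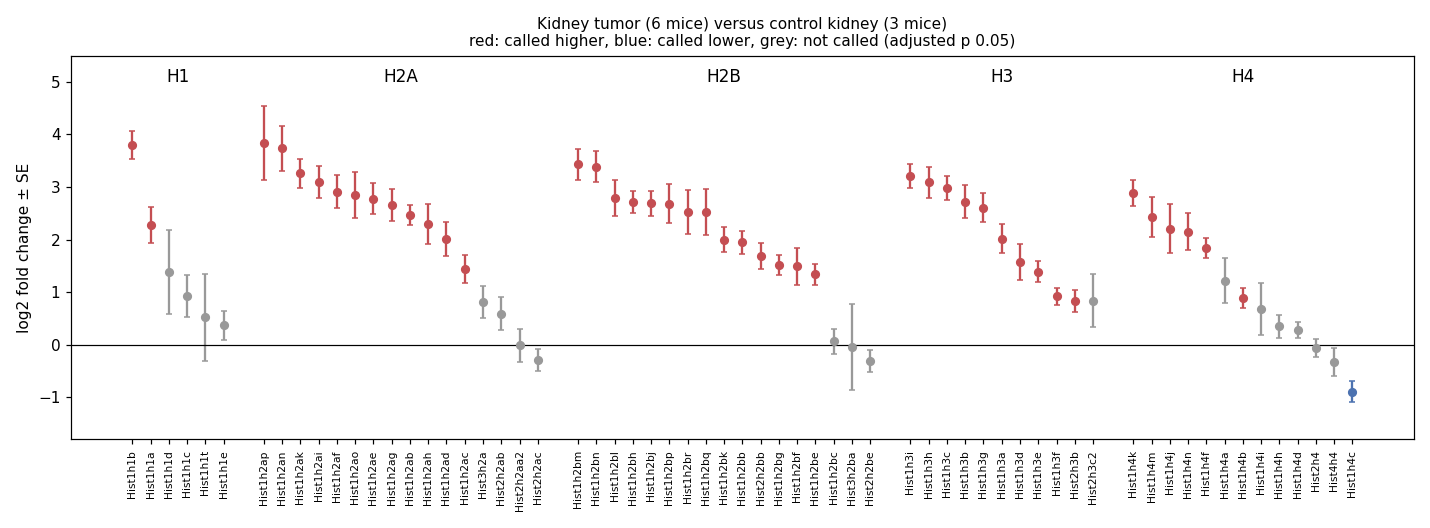
Log2 fold change of each of the 63 tested members in kidney tumors (6 mice) compared to control kidneys (3 mice), by class and in falling order, with standard errors. Red points were called higher, the blue point (Hist1h4c, -0.89) lower and grey points were not called. The H3 values are all above 0, whereas H4 spans 2.89 to -0.89.

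Among H3 genes, Hist1h3b and Hist1h3i had the highest levels per kilobase by the mean of the 7 group means. In control kidneys Hist2h3b, Hist1h3e and Hist1h3f were higher than both. Hist1h3b was at 1.84, 1.97 and 2.63 CPM in the control kidneys and at 9.35 to 22.1 CPM in kidney tumors, with a median of 13.2. Hist1h3i was at 0.941, 0.997 and 1.14 CPM in the control kidneys and at 7.76 to 11.2 CPM in kidney tumors, with a median of 9.99. Neither gene overlapped between the groups. Hist1h3b rose by 2.72 on the log2 scale (SE 0.31 and adjusted p 0.000854 in edgeR) and Hist1h3i by 3.21 (SE 0.23 and adjusted p 0.000131 in edgeR). The smallest rise of an H3 gene was that of Hist2h3b, which lies in the chromosome 3 cluster. It was at 4.5, 4.82 and 4.22 CPM in control kidneys and 6.55 to 11.2 in tumors, a log2 fold change of 0.84 (SE 0.21 and adjusted p 0.0267 in edgeR). This call was kept in 14 of 17 alternatives and lost without control mouse 1, 2 or 3, with adjusted p up to 0.109 in edgeR.

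Of the H2A genes, Hist1h2ak and Hist1h2af had the highest levels per kilobase by the mean of the group means. In control kidneys Hist2h2ac and Hist3h2a were higher per kilobase than both. Hist1h2ak was at 1.49, 1.45 and 2.46 CPM in control kidneys and 14.2 to 20.5 CPM in kidney tumors, with a median of 18.3. Hist1h2af was at 1.87, 1.81 and 3.48 CPM in control kidneys and 15.2 to 26.1 CPM in kidney tumors, with a median of 16.9. Both sets were apart, and the log2 fold changes were 3.26 (SE 0.27 and adjusted p 0.000211 in edgeR) and 2.91 (SE 0.31 and adjusted p 0.000584 in edgeR). Hist1h2ap had the largest H2A value, 3.84 (SE 0.71 and adjusted p 0.00826 in edgeR), at a low level of 0.0329 to 0.0632 CPM in control kidneys and 0.126 to 1.18 CPM in tumors. Its coding sequence is identical to that of Hist1h2ao. Hist2h2ac went the other way without being called. It was at 18.7, 21 and 17 CPM in control kidneys and 10.9 to 19.7 CPM in tumors, so that the groups overlapped, with a log2 fold change of -0.29 (SE 0.21 and adjusted p 0.338 in edgeR).

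H2B genes gave a similar range. Hist1h2bn was at 1.83, 1.36 and 2.75 CPM in control kidneys and 16.4 to 26 CPM in kidney tumors, with a median of 20.6. Hist1h2bb, whose promoter holds an octamer, was at 4.93, 4.33 and 4.93 CPM in control kidneys and 13.5 to 25.1 CPM in tumors, with a median of 18.5. Their log2 fold changes were 3.39 (SE 0.30 and adjusted p 0.000223 in edgeR) and 1.95 (SE 0.22 and adjusted p 0.000753 in edgeR), and neither overlapped between the groups. Hist1h2bm had the largest H2B value, 3.43 (SE 0.29 and adjusted p 0.000214 in edgeR), from 0.763 to 1.36 CPM in control kidneys to 8.56 to 13.9 CPM in tumors. Hist2h2be had the smallest, -0.30 (SE 0.21 and adjusted p 0.327 in edgeR), with overlapping levels of 11.4 to 13.4 CPM and 8.27 to 14.7 CPM. The most counted H2B gene of control kidneys, Hist1h2bc, was at 48.8, 55.1 and 47.5 CPM there and at 34.6 to 78.8 CPM in kidney tumors, a log2 fold change of 0.07 (SE 0.24 and adjusted p 0.856 in edgeR). Hist1h2bc held 54.6% of H2B counts in control kidneys, 27.8% in kidney tumors and 6.21% in control fetal kidneys.

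The H4 genes encode the same protein, yet their messages moved apart. Hist1h4k was at 2.31, 1.81 and 2.08 CPM in control kidneys and 11.5 to 21 CPM in kidney tumors, with a median of 15.3. The rise was 2.89 on the log2 scale (SE 0.25 and adjusted p 0.00022 in edgeR). Hist1h4f was at 7.74, 5.77 and 5.72 CPM in control kidneys and 18.5 to 26.1 CPM in tumors, with a log2 fold change of 1.85 (SE 0.19 and adjusted p 0.000441 in edgeR). Hist1h4d had the highest level per kilobase of the class by the mean of the group means. In control kidneys Hist1h4c and Hist1h4h were higher per kilobase. Hist1h4d was at 72.8, 70 and 72.5 CPM in control kidneys. It was at 73.8 to 108 CPM in tumors, which lay just above the controls, and its log2 fold change of 0.28 (SE 0.15 and adjusted p 0.207 in edgeR) was not called.

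Hist1h4c (chromosome 13, 23697635 to 23698454, minus strand) was the only member called lower in kidney tumors. It was at 92, 99.7 and 81.2 CPM in control kidneys and at 37.1 to 69.5 CPM in tumors, with a median of 44.5. All 6 tumors lay below all 3 control kidneys. The log2 fold change was -0.89 (SE 0.20 and adjusted p 0.0189 in edgeR), called in 14 of 17 alternatives. The 3 that lost the call left out control mouse 1, 2 or 3, with adjusted p of 0.0628, 0.105 and 0.0656. Hist1h4c held 38.1% of H4 counts in control kidneys, 17.5% in kidney tumors and 12.3% in control fetal kidneys, while Hist1h4d stayed at 30.2%, 30.5% and 31.6%.

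Among the H1 genes, Hist1h1b, the H1.5 gene, was at 0.555, 0.316 and 0.437 CPM in control kidneys and 5.09 to 6.94 CPM in kidney tumors, with a median of 6.14. It rose by 3.80 on the log2 scale (SE 0.27 and adjusted p 0.000131 in edgeR). Hist1h1a, the H1.1 gene, rose by 2.28 (SE 0.35 and adjusted p 0.00382 in edgeR). The remaining H1 genes were not called. Hist1h1e was at 35.7, 17.9 and 15.7 CPM in control kidneys and 22.2 to 38.4 CPM in tumors, with a log2 fold change of 0.37 (SE 0.28 and adjusted p 0.37 in edgeR).

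Hist1h1c, the H1.2 gene and the most counted H1 gene of the control kidneys, was at 179, 55.5 and 52.8 CPM in control kidneys and at 132 to 239 CPM in kidney tumors, with a median of 197. Its log2 fold change was 0.93 (SE 0.40 and adjusted p 0.13 in edgeR). Without control mouse 1 it was 1.74, with an adjusted p in edgeR of 0.0105. The same mouse was the high control for Hist1h1d, at 17.7 CPM beside 1.49 and 1.82 CPM, and for Hist1h1e. The 2 libraries of that mouse differed in the summed level of all members by 1.25 times, and the other control mice by 1.02 and 1.17 times.

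**Figure D3:**
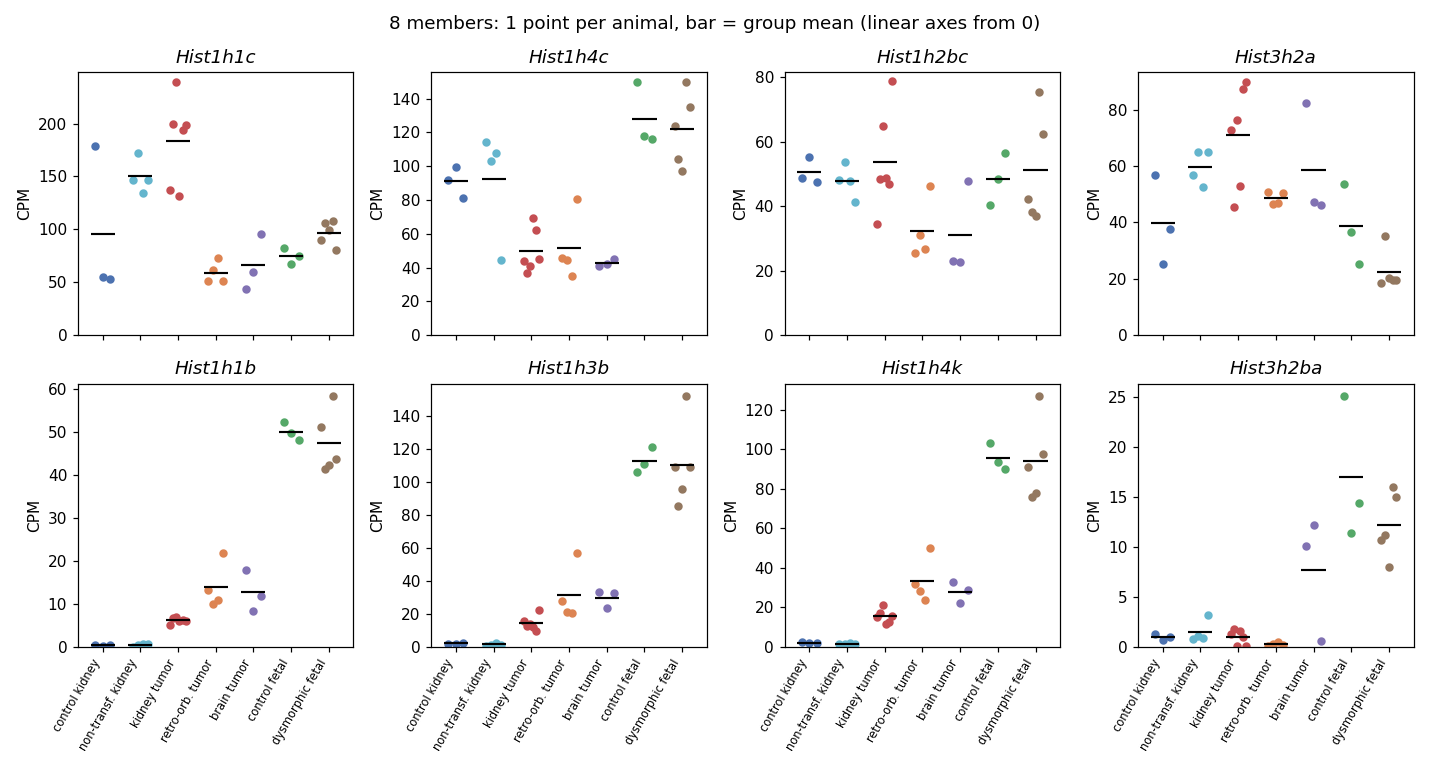
Level of 8 members (CPM, linear axes from 0) with a point for each animal and a bar for the group mean. Hist1h1b, Hist1h3b and Hist1h4k are low in control and non-transformed kidneys, intermediate in tumors and high in fetal kidneys, whereas Hist1h4c is lower in kidney tumors (mean 49.8 CPM) than in control fetal kidneys, control kidneys and most non-transformed kidneys, and Hist1h1c is lower in retro-orbital and brain tumors than in kidney tumors.

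A subset of members has an annotated transcript longer than 1000 bases, as for messages that run past the usual short form. Of these, 7 of 17 tested were called higher in kidney tumors, against 12.5% of all genes, with a median log2 fold change of 0.92. Of the other members tested, 37 of 46 were called higher and 1 lower, with a median of 2.29. Hist1h1c, Hist1h2bc, Hist3h2a, Hist2h2be and Hist1h4d belong to the longer set. Hist3h2a, on chromosome 11, was at 56.8, 25.2 and 37.7 CPM in control kidneys and 45.6 to 89.8 CPM in tumors, a log2 fold change of 0.81 (SE 0.30 and adjusted p 0.0858 in edgeR). It held 53.2% of H2A counts in control kidneys, 42.5% in kidney tumors and 7.98% in control fetal kidneys. Members with an octamer in the promoter had 9 of 11 called higher and a median of 1.95, and the members with a promoter and no octamer had 32 of 46 called higher, 1 lower and a median of 2.18.

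The H2A and H2B genes formed 12 head-to-head pairs with starts 176 to 306 bases apart. In 11 pairs both genes were tested, and the median absolute difference between the partners' log2 fold changes in kidney tumors was 0.33. Hist1h2ak and Hist1h2bn had 3.26 and 3.39, and Hist2h2ac and Hist2h2be had -0.29 and -0.30. The pair farthest apart was Hist1h2ac and Hist1h2bc, with 1.44 and 0.07, a difference of 1.37. For Hist1h2ae and Hist1h2bg, which share the octamer window printed above, the values were 2.78 and 1.51, and for Hist1h2ah and Hist1h2bk they were 2.29 and 2.0. Except for Hist2h2be, the partners have transcript stretches that also occur in other genes. How the reads from such stretches were assigned is not known.

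Tumors were next compared to non-transformed kidney of the same cohort (n = 4). Here 44 of 63 members were called higher and 1 lower, against 12.1% and 5.02% of all genes, and the median was 2.16 compared to -0.02 over all genes. The kidney tumors are the same samples as in the comparison to control kidneys, so the counts are not independent. With the mouse as a block, 32 members were called higher and none lower. Hist1h3g had the largest value. It was at 0.179, 0.163, 0.296 and 0.27 CPM in non-transformed kidneys and 3.67 to 7.1 CPM in kidney tumors, a log2 fold change of 4.40 (SE 0.31 and adjusted p 5.68e-05 in edgeR). Hist1h1d was called in this comparison, at 1.45, 2.61, 2.74 and 1.83 CPM in non-transformed kidneys and 8.74 to 30.5 CPM in tumors, with a log2 fold change of 3.03 (SE 0.40 and adjusted p 0.00109 in edgeR). Hist1h1c was at 147, 172, 134 and 147 CPM in non-transformed kidneys, within the range of the tumors, with a log2 fold change of 0.24 (SE 0.18 and adjusted p 0.354 in edgeR).

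In the same comparison both nephron progenitor genes tested were called higher, Cited1 (5.05) and Eya1 (4.75), and the sum of the list was 2.46 to 6 CPM in non-transformed kidneys and 4.77 to 358 CPM in tumors, with Six2 at 0 in the non-transformed kidneys. Cd68 (3.09) of 3 leukocyte genes and Mbp (1.19) of 5 brain genes were called higher, with sums of 74.8 to 181 and 163 to 382 CPM for leukocytes and 11.4 to 15.4 and 14.1 to 85.6 CPM for brain. No proximal tubule, skeletal muscle, erythroid or lymphocyte gene was called, with medians of -2.10, 3.28, -1.06 and -0.12. The part of these cells in the result was not tested.

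Hist1h4c was again called lower in tumors. Non-transformed kidneys had 114, 103, 108 and 44.7 CPM, so that mouse 5 lay within the range of the tumors. The log2 fold change was -0.95 (SE 0.28 and adjusted p 0.0424 in edgeR), called in 8 of 15 alternatives, and with the mouse as a block it was -0.78 with an adjusted p of 0.269.

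Non-transformed and control kidneys were set side by side to examine fusion-carrying kidney that is labelled as non-transformed. Of 59 members tested, edgeR called 0, against 0.00952% of all genes, and 3 had an unadjusted p under 0.05. DESeq2 called 1. The median log2 fold change was -0.22 compared to 0.03 over all genes. The 3 genes were Hist3h2a (0.59), Hist1h3d (-0.96) and Hist1h3g (-1.81). Hist1h3g was at 0.715, 0.79 and 0.907 CPM in control kidneys, so that all 4 non-transformed kidneys were lower, with an adjusted p in edgeR of 0.173 (SE 0.33). DESeq2 gave it an adjusted p of 0.000846, and the edgeR fits with every library apart and with all groups gave 0.0378 and 0.0293.

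**Figure D4:**
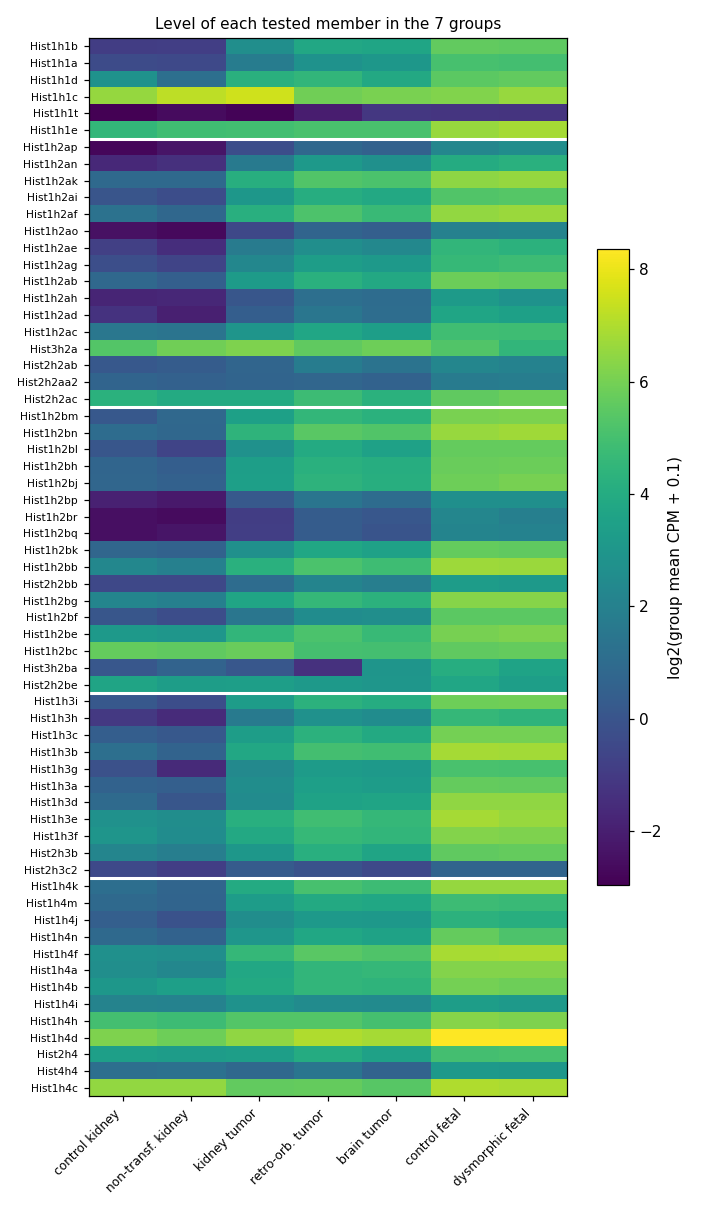
Level of the 63 members tested in kidney tumors against control kidneys, in rows by class, in the 7 groups. Color gives log2 of the group mean CPM plus 0.1. Most rows step up from non-fetal kidney to tumor to fetal kidney, while rows such as Hist1h1c, Hist3h2a, Hist1h2bc, Hist2h2be and Hist1h4c do not, and Hist1h1t stays low throughout.

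Retro-orbital tumors (n = 4) were compared to kidney tumors to ask how tumors at another site differ. Of 63 members tested, 27 were called higher and 1 lower, against 8.26% and 9.45% of all genes. The median log2 fold change was 0.90, compared to -0.09 over all genes. The calls comprised 10 of 16 H2A, 9 of 17 H2B, 4 of 11 H3, 2 of 13 H4 and 2 of 6 H1 members. Hist1h1b was at 13.3, 9.91, 10.9 and 21.8 CPM in retro-orbital tumors, all above the kidney tumors, with a log2 fold change of 1.15 (SE 0.22 and adjusted p 0.00749 in edgeR). With the mouse as a block its adjusted p was 0.0686, and the other 14 of 15 alternatives kept the call. Hist1h3b was at 28, 21.3, 20.4 and 57 CPM, and rose by 1.12 (SE 0.32 and adjusted p 0.0387 in edgeR). This call was kept in 12 of 15 alternatives and lost without mouse 2, 3 or 4, with adjusted p up to 0.119 in edgeR. Its range met that of the kidney tumors, whose highest value was 22.1 CPM. In both genes the fourth value is that of mouse 6, whose retro-orbital tumor had a member total of 1900 CPM, beside 895 to 1184 CPM in the other retro-orbital tumors.

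The count of calls rested on single animals. It was 7 without mouse 2, 12 without mouse 3 and 9 without mouse 6, and 10 with the mouse as a block, of which 8 were higher and 2 lower. The summed level of the proximal tubule markers was 376 ± 420 CPM in retro-orbital tumors and 3090 ± 3225 CPM in kidney tumors. None of these 5 genes was called. Of 2 nephron progenitor genes tested, Eya1 was called lower (-4.69) and Cited1 was not (-3.39), and the sum of the list was 3.58 to 12.7 CPM in retro-orbital and 4.77 to 358 CPM in kidney tumors. No skeletal muscle, erythroid, lymphocyte, leukocyte or brain gene was called, with medians of -3.24, -1.02, 1.68, -0.01 and -0.44. The skeletal muscle sum was 1.78 to 5.13 CPM and 1.78 to 80.7 CPM, and the erythroid sum 104 to 209 CPM and 185 to 673 CPM. The part of these cells in the result was not tested.

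The member called lower was Hist1h1c. It was at 51.7, 61.4, 72.8 and 50.9 CPM in retro-orbital tumors, all below the kidney tumors, with a log2 fold change of -1.66 (SE 0.20 and adjusted p 0.00143 in edgeR). The call held in 15 of 15 alternatives, with adjusted p from 3.4e-11 to 0.0165 and a value of -1.85 with the mouse as a block. Hist1h1c held 75.4% of H1 counts in kidney tumors, 43.9% in retro-orbital tumors and 48.2% in brain tumors. Hist1h1e was at 32.6, 26.8, 28.9 and 48 CPM, a log2 fold change of 0.15 (SE 0.20 and adjusted p 0.645 in edgeR). Hist1h2bc, at 25.4, 31.2, 26.8 and 46.3 CPM, had a log2 fold change of -0.75 (SE 0.25 and adjusted p 0.0628 in edgeR) and was called lower with the mouse as a block, at -0.92 and an adjusted p of 0.019.

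In brain tumors (n = 3) compared to kidney tumors, 11 of 64 members were called higher and 1 lower, against 4.54% and 4.2% of all genes, with a median log2 fold change of 0.73 compared to 0.03. The higher members were Hist1h1a, Hist1h1b, Hist1h2ak, Hist1h2an, Hist1h2bm, Hist1h2bn, Hist1h3b, Hist1h3f, Hist1h3i, Hist1h4f and Hist1h4k, from 0.68 for Hist1h3f to 1.33 for Hist1h1a. Hist1h2ak was at 34, 32.3 and 40.4 CPM in brain tumors, all above the kidney tumors, with a log2 fold change of 1.06 (SE 0.18 and adjusted p 0.0153 in edgeR), called in 11 of 15 alternatives. Hist1h1c was at 43.8, 60.1 and 96 CPM, all below the kidney tumors, and had a log2 fold change of -1.42 (SE 0.30 and adjusted p 0.0262 in edgeR).

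No member was called with the mouse as a block, and none without mouse 1 or without mouse 2, whereas DESeq2 called 35. For Hist1h1c, 12 of 15 alternatives kept the call. Brain markers ranged from 35.9 to 1440 CPM and leukocyte markers from 117 to 534 CPM among the brain tumors, compared to 14.1 to 85.6 and 163 to 382 CPM in kidney tumors. Of these genes Mbp (3.27) was the only one called. No gene of the other lists was called, with medians of -4.38 for proximal tubule, -1.52 for lymphocytes, -1.38 for skeletal muscle, -1.02 for erythroid cells and 1.67 for nephron progenitors, and all 5 proximal tubule genes had an unadjusted p under 0.05. The part of these cells in the result was not tested.

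Between brain and retro-orbital tumors, edgeR called 0 of 63 members, against 1.73% of all genes. A single member, Hist3h2ba, had an unadjusted p under 0.05, and DESeq2 called it alone. Hist3h2ba, an H2B gene on chromosome 11, was at 10.1, 12.2 and 0.642 CPM in brain tumors of mice 1, 2 and 4, at 0.126 to 0.496 CPM in retro-orbital tumors and at 0.0999 to 1.81 CPM in kidney tumors. The brain tumors of mice 1 and 2 thus reached the range of dysmorphic fetal kidneys, 8.01 to 16 CPM, while that of mouse 4 did not. The log2 fold change against retro-orbital tumors was 4.69 (SE 0.98 and adjusted p 0.063 in edgeR), and without mouse 4 the adjusted p was 0.0247. Of the marker lists, 1 of 3 lymphocyte genes was called lower (median -3.20) and no other gene was called. The 5 brain genes had a median of 5.27, and 4 had an unadjusted p under 0.05 in edgeR. Medians were 2.20 for nephron progenitors, 2.04 for skeletal muscle, -1.16 for proximal tubule, -0.78 for leukocytes and -0.05 for erythroid cells. The part of these cells in the result was not tested.

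In the second model, dysmorphic fetal kidneys (n = 5) were compared to control fetal kidneys (n = 3). Both edgeR and DESeq2 called 0 of 64 members, against 2.67% of all genes in edgeR, and 3 had an unadjusted p under 0.05 in edgeR. The median log2 fold change was -0.05 compared to -0.04 over all genes, with a range from -0.78 to 0.37. Hist1h3b was at 109, 85.5, 95.6, 152 and 109 CPM in dysmorphic and 106, 111 and 121 CPM in control fetal kidneys. Hist1h1b was at 51.3, 41.5, 42.3, 58.4 and 43.7 CPM and at 52.4, 49.7 and 48.1 CPM. Both genes overlapped between the groups. The lowest value was that of Hist3h2a, at 18.4, 35.2, 20.2, 19.5 and 19.6 CPM in dysmorphic and 53.6, 36.7 and 25.4 CPM in control fetal kidneys, a log2 fold change of -0.78 (SE 0.29 and adjusted p 0.184 in edgeR). Without dysmorphic fetus 2 it was called, at -1.02 with an adjusted p of 0.0469. All 4 skeletal muscle genes were called higher, at 1.89 to 2.14, and no gene of the other marker lists was called. The proximal tubule median was -2.22, and 4 of the 5 genes had an unadjusted p under 0.05 in edgeR. Medians were 0.59 for brain, 0.44 for leukocytes, -0.33 for nephron progenitors, -0.40 for lymphocytes and -0.80 for erythroid cells. The part of these cells in the result was not tested.

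To place the tumors on a scale, control fetal kidneys were set against the non-fetal control kidneys. Here 58 of 64 members were called higher and 0 lower, against 25.1% of all genes called higher, and the median log2 fold change was 4.96 compared to 0.03 over all genes. Of the classes, 11 of 11 H3, 15 of 16 H2A, 16 of 18 H2B, 12 of 13 H4 and 4 of 6 H1 members were called. The H2B calls include Hist1h2ba, which had 0 counts in control kidneys and was tested only through its fetal counts. With a floor of 3 counts in place of its 0, the median over the members was also 4.96. Age, count table and Cre driver changed together in this comparison and cannot be told apart. Markers of cell types changed as well. All 4 skeletal muscle genes were called higher, with a summed level of 0.749 to 3.48 CPM in control kidneys and 667 to 879 CPM in control fetal kidneys. All 4 erythroid genes (335 to 391 and 765 to 1320 CPM) and all 3 nephron progenitor genes (1.71 to 2.88 and 7.19 to 140 CPM) were called higher, and all 5 proximal tubule genes lower (10519 to 10965 and 1131 to 1365 CPM). Of the progenitor genes, Six2 was at 0 in the control kidneys. Of 4 brain genes tested, 2 were called higher (median 2.22). Of 3 leukocyte and 3 lymphocyte genes, 1 each was called lower, with medians of -0.91 and -2.47. The part of these cells in the result was not tested.

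Hist1h3b had 106, 111 and 121 CPM in the fetal controls, a log2 fold change of 5.74 (SE 0.21 and adjusted p 2.63e-05 in edgeR). Hist1h4k had 103, 93.7 and 90.2 CPM, with 5.55 (SE 0.17 and adjusted p 2.5e-05 in edgeR).

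The 6 members not called were Hist1h1c (-0.33), Hist1h1d (2.73), Hist3h2a (-0.03), Hist1h2bc (-0.03), Hist2h2be (0.14) and Hist1h4i (1.28). Hist1h2bc was at 40.5, 48.4 and 56.6 CPM in the fetal controls, and Hist2h2be at 15.9, 11.8 and 12.2 CPM, and both overlapped the control kidneys. Of the members with a long transcript, 12 of 17 were called higher, with a median of 2.21, and of the others 46 of 47, with a median of 5.18, against 25.1% of all genes. Hist1h4c, lower in kidney tumors, was higher in fetal than in non-fetal controls, with 150, 118 and 116 CPM and a log2 fold change of 0.52 (SE 0.15 and adjusted p 0.0288 in edgeR). That call was kept in 7 of 14 alternatives, with adjusted p up to 0.195, and was lost without any single control mouse and without control fetus 1 or 2.

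The effect of the fusion was then compared between the models, as the difference of the kidney tumor effect and the fetal effect in a fit of the 4 groups. For 45 of 64 members this difference was called above 0, and for 0 below, against 6.87% of all genes called above. The median was 2.12, compared to 0.16 over all genes. The kidney tumors and control kidneys are those of the earlier comparison, where 44 of 63 members were called higher. The fetal effect had a median of -0.05, so the 2 counts are not independent. The 64 members include Hist1h2ba, which had 0 counts in control kidneys and was not tested in kidney tumors against control kidneys. The count by class was 13 of 16 H2A, 15 of 18 H2B, 9 of 11 H3, 6 of 13 H4 and 2 of 6 H1. Hist1h1b had a difference of 3.93 (SE 0.26 and adjusted p 7.55e-07 in edgeR), with 3.80 in the Sglt2-Cre and -0.10 in the fetal model. Hist3h2a had 1.62 (SE 0.44 and adjusted p 0.0322 in edgeR), although neither of its effects, 0.81 and -0.78, was called alone. For Hist1h4c the difference was -0.78 (SE 0.26 and adjusted p 0.0717 in edgeR). Age, Cre driver, tissue state and count table differ between the models together and cannot be told apart. In the same fit, 2 of 3 nephron progenitor genes, Eya1 (6.48) and Cited1 (4.90), and Cd68 (2.77) of 3 leukocyte genes were called above 0, and no gene of the proximal tubule, brain, skeletal muscle, lymphocyte and erythroid lists was called. The part of these cells in the difference was not tested.

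Germline members were at the edge of detection. Hist1h2ba, the testis H2B gene, had 0 counts in the control kidneys, where a floor of 3 counts over the group is 0.00449 CPM, and 0.263, 0.0609 and 0.262 CPM in the fetal controls, at least 43.4-fold higher. Hist1h1t, the testis H1 gene, was at 0.00856 to 0.047 CPM in control kidneys and 0.244 to 0.409 CPM in control fetal kidneys. The brain tumor of mouse 1 had 0.983 CPM of Hist1h1t, from 98 counts, and those of mice 2 and 4 had 0.0169 and 0.0779 CPM. Hist1h2aa was not tested in any comparison.

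Genes around the histone cycle were read in the same fits. Of 16 S-phase genes, among them Mki67, Pcna, the Mcm helicase genes and Rrm2, 14 were called higher in kidney tumors than in control kidneys and none lower, with a median of 1.82, against 12.5% of all genes called higher. The proliferation marker Mki67 was 41.2 ± 9.24 CPM (SD, n = 3) and 284 ± 53 CPM (n = 6), a log2 fold change of 2.77 (adjusted p 0.000211 in edgeR). Rrm2, a subunit of ribonucleotide reductase, rose by 2.74. Tyms (-0.40) and Ccne2 (0.58) were not called. In control fetal compared to control kidneys all 16 were called higher, against 25.1% of all genes, and in retro-orbital compared to kidney tumors 7 were, against 8.26%. None was called in the fetal model.

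The summed level of the 16 S-phase genes was 265 ± 9.76 CPM (SD, n = 3) in control kidneys, 238 ± 34.8 (n = 4) in non-transformed kidneys, 789 ± 120 (n = 6) in kidney tumors, 1305 ± 170 (n = 4) in retro-orbital tumors and 1463 ± 914 (n = 3) in brain tumors. It was 2653 ± 89.5 CPM (n = 3) in control and 2662 ± 291 (n = 5) in dysmorphic fetal kidneys. The order of these means matched that of the H3 totals except within the brain and retro-orbital pair and within the fetal pair, and in both pairs the samples overlapped in both measures. The match did not hold for all classes. The H1 mean was 242 CPM in kidney tumors and 136 and 137 CPM in retro-orbital and brain tumors. The H2A mean was 73 CPM in control kidneys and 87.5 CPM in non-transformed kidneys.

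**Figure D5:**
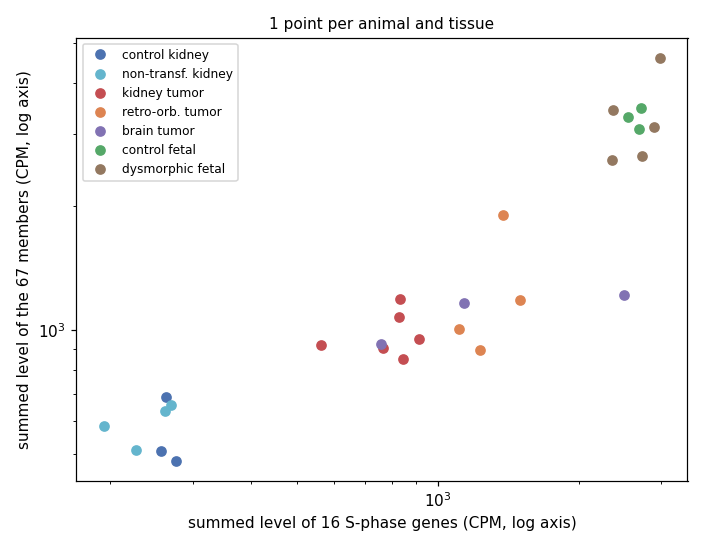
Summed level of the 67 members against the summed level of 16 S-phase genes (CPM, both axes log), with a point for each animal and tissue. Control and non-transformed kidneys lie at 194 to 276 CPM of S-phase genes, kidney tumors at 563 to 910 CPM and fetal kidneys at 2350 CPM or more, and a brain tumor at 2495 CPM of S-phase genes has 1215 CPM of members, below every fetal kidney.

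Genes that process histone messages were read next. Of 13 regulators, Eri1, the exonuclease that trims the stem-loop end (0.73, adjusted p 0.0141 in edgeR), and Zfp473, a zinc finger of the processing complex (0.96, adjusted p 0.0484 in edgeR), were called higher in kidney tumors and none lower. This share of 2 of 13 is near the 12.5% of all genes called higher. Against non-transformed kidneys 4 of 13 were called higher in kidney tumors, with 12.1% of all genes. In control fetal compared to control kidneys 6 of 13 were called higher, with 25.1% of all genes. Slbp was 21 ± 1.37 CPM (SD, n = 3) in control kidneys and 27.5 ± 2.92 CPM (n = 6) in kidney tumors, a log2 fold change of 0.37 with an adjusted p in edgeR of 0.0867. It was 45.1 ± 0.864 CPM (n = 3) in control fetal kidneys, and that rise of 1.12 was called (adjusted p 0.000646 in edgeR). Npat had 0.17 in kidney tumors (adjusted p 0.422 in edgeR) and 0.82 in fetal controls (adjusted p 0.00458 in edgeR).

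Of 11 replication-independent histone genes, 5 were called higher in kidney tumors and none lower, against 12.5% of all genes called higher. They were Cenpa, the centromeric H3 variant (2.20), H3f3a, which encodes H3.3 (1.99), H1fx (1.58), H2afx (0.95) and H2afz (0.92). H3f3a was 127 ± 19.4 CPM (SD, n = 3) in control kidneys, 513 ± 185 CPM (n = 6) in kidney tumors and, in control fetal kidneys, 240 ± 52.6 CPM (n = 3), so that its mean was higher in tumors than in the fetus, whereas the H3 member total was higher in the fetus. H1f0, the linker variant of resting cells, had -0.05 (adjusted p 0.881 in edgeR). In control fetal compared to control kidneys, 10 were called higher, against 25.1% of all genes, and 1, H2afj (-2.17), lower.

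Of 7 histone chaperones, which carry new histones to DNA, Chaf1b (6.76, adjusted p 0.000165 in edgeR), Asf1b (2.59, adjusted p 0.000702 in edgeR) and Chaf1a (2.19, adjusted p 0.001 in edgeR) were called higher in kidney tumors and none lower, against 12.5% of all genes called higher. Chaf1b, a subunit of chromatin assembly factor 1, was 1.36 ± 0.0876 CPM (SD, n = 3) in control kidneys and 150 ± 75.3 CPM (n = 6) in kidney tumors. In control fetal kidneys it was 21.2 ± 2.7 CPM (n = 3). The kidney tumors, at 82.4 to 293 CPM, thus lay above the fetal kidneys, at 17.9 to 33.5 CPM, in contrast to the S-phase sum. Nasp, the H1 and H3 chaperone, had 0.46 (adjusted p 0.0618 in edgeR).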

How the data were processed

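Stranded total RNA libraries were made from formalin-fixed, paraffin-embedded mouse tissue without depletion of ribosomal RNA, per the labels. The authors deposited whole-number counts per gene, with no normalization. The submitters' processing notes name FastQC, MultiQC, Bowtie2, STAR 2.5.2a and the builds GRCm38 and mm10, and the counter and annotation are not given in the sources used here. Between 79.04% and 84.33% of counts from 1 to 20 were even, so counts may exceed independent fragments, and halved counts were tried.

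Of 53379 gene IDs, 53274 matched GENCODE M21 (GRCm38) without the version. Libraries of an animal and tissue were summed, since animals, named in the sample titles, are the replicates. Libraries of a mouse differed by more than sampling noise. Each comparison was fitted on its own groups in edgeR 4.0.16 (R 4.3.3) with TMM scaling, filterByExpr and the quasi-likelihood test, and p-values were adjusted over all genes tested by Benjamini-Hochberg. SE was taken as the size of the coefficient over the root of the F statistic. TMM-scaled CPM were used for levels. The code was tested on simulated data. Floors of 3 counts cover counting error only.

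Alternatives were RLE scaling, DESeq2 1.42.0, no filter, a filter of 1 CPM, single libraries, a joint fit, scaling without the members, the mouse as a block and leaving out each animal. Tissues of the same mouse pair the samples, and deviations from group means correlated at -0.0447 to 0.163 for kidney tumor and non-transformed kidney, 0.253 to 0.325 for kidney and retro-orbital tumors and -0.075 to -0.0572 for kidney and brain tumors.

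The members and lists were chosen with earlier results of these data known. The members chosen by rule to be described with their values were the 2 of each class with the highest level per kilobase, those with the largest and smallest log2 fold change in kidney tumors compared to control kidneys, and members called lower there or in control fetal compared to control kidneys. Hist1h1a, Hist1h1d, Hist1h1t, Hist1h2bc, Hist1h3g, Hist3h2a and Hist3h2ba were chosen after their values were seen.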

Additional observations from a re-analysis of the deposited data

Results flagged for a closer look

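Levels that stood apart within a group were sought among 92 sets of 4 to 6 animals, covering class totals and the members chosen by rule. A sample was flagged where its gap to the nearest other, over the range of the group, passed the 95% limit of Dixon's test, which chance passes in about 1 of 20 groups, or 4.6 of 92. There were 7 such levels. The H1 total of dysmorphic fetus 4 was 426 CPM, with the nearest at 334. In mouse 6, Hist1h2af in the kidney tumors was 26.1 CPM (nearest 18.6), Hist2h2be in the kidney tumors was 14.7 CPM (nearest 10.1) and Hist2h2ac in the retro-orbital tumor was 47 CPM (nearest 23.1). In the non-transformed kidney of mouse 5, Hist1h2bm was 4.97 CPM (nearest 0.977) and Hist1h4c was 44.7 CPM (nearest 103). In that of mouse 4, Hist1h4k was 2.22 CPM (nearest 1.33).

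The fusion effect differed between the models for 45 of 64 members tested, by the interaction term of the edgeR fit, against 6.87% of all genes called above 0. In all 45 the log2 fold change of the Sglt2-Cre model minus that of the fetal model was above 0. The count is not independent of that in kidney tumors against control kidneys, which are the same samples.

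A signal appeared in data outside the member set. The pseudogene Hist1h2al had a mean of 2.92 CPM in kidney tumors and 0.164 CPM in control kidneys, and it was called (log2 fold change 4.14, adjusted p 0.0433 in edgeR). The tumors ranged from 0.14 to 4.65 CPM and overlapped the control kidneys, at 0.0271 to 0.395 CPM. Non-transformed kidneys were at 2.28, 3.64, 3.64 and 2.86 CPM, within the range of the tumors, a log2 fold change against control kidneys of 4.26 that was not called (adjusted p 0.173 in edgeR). Mouse 6 had 0.14 CPM in its kidney tumors and 0.199 CPM in its retro-orbital tumor. Dysmorphic fetuses 4 and 5 and control fetus 3, which share a title start, had 0.814, 0.488 and 1.37 CPM. Dysmorphic fetuses 1 to 3 and control fetuses 1 and 2, which share another, had 6.27, 1.16, 5.01, 7.38 and 6.41 CPM. Whether the level goes with the animal or title start was not tested.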

How the results depend on the processing

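Counts of members called in kidney tumors against control kidneys, kidney tumors against non-transformed kidneys, control fetal against control kidneys and in the difference between the models stayed within 1.5 times under all alternatives that were run. Leaving out an animal gave 38 to 45, 37 to 45, 56 to 58 and 37 to 46. With the mouse as a replicate block, tumors against non-transformed kidneys gave 32. For non-transformed against control kidneys the count was 1 with DESeq2, with single libraries and in the joint fit, and 0 to 0 on leaving out an animal. For retro-orbital against kidney tumors it was 46 with DESeq2, 10 with the block and 7 to 32 on leaving out an animal. For brain against kidney tumors it was 35 with DESeq2, 4 without a filter, 23 with the stricter filter, 6 with single libraries, 23 in the joint fit, 0 with the block and 0 to 5 on leaving out an animal (0 without mouse 1 or 2, 2 without 3, 1 without 4, 4 without 5 and 5 without 6). For brain against retro-orbital tumors it was 1 with DESeq2 and in the joint fit and 0 to 1 on leaving out an animal (1 without mouse 4). These groups share only mouse 2, so the block could not be fitted. For dysmorphic against control fetal kidneys it was 0 to 1 (1 without dysmorphic fetus 2), and 0 with a block by the shared start of the sample titles. The cause of these moves was not tested. Class totals per plain library total moved in control fetal kidneys, to 345 (H1), 561 (H2A), 890 (H2B), 766 (H3) and 1181 CPM (H4), and to 89.8 CPM for H2B in control kidneys, while the other 29 totals and all 35 with RLE scaling moved by less than 1 SD. Of the values called for the members chosen by rule, 1072 kept their call over the alternatives, 127 lost it and 0 reversed. Depth limits Hist1h1t, Hist1h2aa and Hist1h2ba, which had at most 98, 11 and 44 counts.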

Other observations

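Hist3h2bb-ps, a pseudogene of the chromosome 11 group, was at 3.59, 2.08 and 0.564 CPM in the brain tumors of mice 1, 2 and 4 and at 0.256 to 0.681 CPM in kidney tumors. Its log2 fold change between these groups was 2.19 (SE 0.52 and adjusted p 0.0364 in edgeR). The order of the 3 brain tumors differed from that of Hist3h2ba, at 10.1, 12.2 and 0.642 CPM, but mouse 4 was the lowest for both. In control fetal kidneys it was at 8.37, 6.15 and 9.1 CPM, compared to control kidneys at 0.376, 0.0993 and 0.419 CPM, a log2 fold change of 4.74 (SE 0.59 and adjusted p 0.00108 in edgeR).

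Hist1h2aj, a pseudogene of the chromosome 13 cluster, was at 0 to 0.0559 CPM in kidney tumors and 0 to 0.00451 CPM in control kidneys, and at 0.164, 0.206 and 0.327 CPM in control fetal kidneys. At these levels a library holds few counts.

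Kidney tumor libraries of the same mouse differed in the summed level of all members by 1.18 to 1.68 times in the 5 mice with several libraries, and control kidney libraries by 1.02 to 1.25 times.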
